A study of Homo sapiens with 12 samples.

Results

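The genes described here are the chaperones, translocon subunits and degradation factors of the endoplasmic reticulum (ER), a list of 36 named genes whose RNA was sequenced in HCT116 cells, a long-established line from a human colorectal carcinoma. A member was described when it reached at least 1 CPM (a gene's count relative to its library's total, scaled between libraries by edgeR's TMM method) in at least 4 of the 12 libraries. All 36 did, out of 18969 genes listed in the deposited tables, and all 36 were among the 12741 genes tested. There were 3 groups of 4 libraries. The DMSO recovery and UNC0642 recovery groups were kept for 24 h in RPMI-1640 without methionine, with 10% FBS and either the vehicle DMSO or UNC0642, were washed, and were then returned for 24 h to the same medium containing methionine, without inhibitor. UNC0642 is a small-molecule inhibitor of EHMT1 and EHMT2, the enzymes (also called GLP and G9a) that methylate histone H3 at lysine 9. The third is called 0 h, and its labels do not say if the cells were taken before the methionine-free medium or at its end. A difference from 0 h is thus a difference from that labelled time and not from cells of known feeding state. Both recovery groups have a later labelled time (24 h), so culture time and handling cannot be told apart from recovery against 0 h. Only UNC0642 recovery against DMSO recovery compares equal culture times. The dose of UNC0642 is not given in the sources used here, all 3 groups come from 1 cell line, and no label says that the libraries of a group came from separate cultures, so the p-values measure the spread between these libraries, which may be technical.

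Proteins bound for secretion or for membranes enter the ER through the Sec61 channel, to which the TRAP complex (the SSR proteins) is attached. Inside, HSPA5 (BiP) and HSP90B1 (GRP94) with their J-domain cofactors, the lectin chaperones CALR and CANX and the PDI family of disulfide enzymes fold them, while proteins that fail to fold are recognised by EDEM1 and OS9 and returned to the cytosol for degradation through the SEL1L and SYVN1 ligase complex with HERPUD1 and the Derlins. When unfolded proteins build up, the sensors ERN1 (IRE1), ATF6 and PERK start the unfolded protein response, in which spliced XBP1 and cleaved ATF6 raise transcription of many of these genes through short promoter elements called ERSE, ERSE-II and UPRE.

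These elements are the sequence feature that many of the chaperone genes are known to share, so the promoters were searched for them. RefSeq promoters on GRCh38.p14, from 250 bases before to 50 bases after the gene start, matched 34 of the 36 members; PDIA3 and DERL1 have no entry. The letters searched, on both strands, were CCAAT, any 9 bases and CCACG for ERSE, ATTGG, any 1 base and CCACG for ERSE-II, and TGACGTGG for UPRE. An exact ERSE stood in 6 of the 34 promoters (17.6%), against 22 of all 27305 promoters of that length (0.0806%). Among promoters of genes tested it stood in 14 of 9167 (0.153%), and both backgrounds include these 6. The list holds genes already known to carry the element, so its share is a description and no test. The 7 matches are given 5′ to 3′ on the strand that reads CCAAT first, with the fixed letters of the element in capitals, because they are what HSPA5, HSP90B1, CRELD2, CALR, CANX and XBP1 have in common at the sequence level.
HSPA5: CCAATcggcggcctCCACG
HSP90B1, upstream match: CCAATcggaaggagCCACG
HSP90B1, downstream match: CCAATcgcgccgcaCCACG
CRELD2: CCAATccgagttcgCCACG
CALR: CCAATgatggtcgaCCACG
CANX: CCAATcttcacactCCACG
XBP1: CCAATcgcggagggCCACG
The HSPA5 match begins 66 bases before the gene start and the XBP1 match 52 bases before it. HSP90B1 is the only one of the 6 with 2 exact matches, which begin 194 and 89 bases before its start and lie on opposite strands. Near matches were not counted, so the number of working elements per gene is not shown.

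ERSE-II stood in 3 of the 34 promoters (8.82%) against 15 of all promoters (0.0549%) and 11 of the 9167 promoters of genes tested (0.12%). The 3 were HYOU1, SDF2L1 and HERPUD1, here with the fixed letters in capitals.
HYOU1, the same letters at 2 places: ATTGGaCCACG
SDF2L1: ATTGGtCCACG
HERPUD1: ATTGGgCCACG
UPRE stood in HYOU1, where it overlaps the upstream ERSE-II match, and in SEC62. That is 2 of 34 promoters (5.88%) against 217 of all (0.795%) and 89 of the 9167 of genes tested (0.971%). No exact match to any of these 3 elements was found in the windows of SSR1, EDEM1 and OS9, the 3 members that rose after both recoveries, which says only that these letters are not there. The windows of MANF, DNAJB11, PDIA4, P4HB, ATF6 and DERL2, all lower after both recoveries, held none either. Absence is thus not particular to the members that rose. The promoters of HSP90B1, the member that changed most, and of HSPA5, the member best known as a target of this response, are printed whole on the gene's strand with their ERSE matches in capitals; the downstream HSP90B1 match appears there as its reverse complement.
HSP90B1 (chr12:103930160-103930459, plus strand): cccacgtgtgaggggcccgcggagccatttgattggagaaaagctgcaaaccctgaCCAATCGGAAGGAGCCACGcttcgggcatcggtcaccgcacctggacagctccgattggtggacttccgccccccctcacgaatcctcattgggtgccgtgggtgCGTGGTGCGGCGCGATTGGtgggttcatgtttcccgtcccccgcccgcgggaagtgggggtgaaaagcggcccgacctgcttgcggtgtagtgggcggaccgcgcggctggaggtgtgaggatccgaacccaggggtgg
HSPA5 (chr9:125241294-125241593, minus strand): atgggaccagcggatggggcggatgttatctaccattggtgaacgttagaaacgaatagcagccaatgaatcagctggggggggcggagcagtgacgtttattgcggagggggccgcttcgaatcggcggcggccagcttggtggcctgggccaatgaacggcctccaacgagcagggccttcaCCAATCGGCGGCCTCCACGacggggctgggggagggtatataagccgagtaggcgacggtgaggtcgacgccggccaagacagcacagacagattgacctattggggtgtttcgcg
By call after DMSO recovery, ERSE stood in 5 of 16 promoters of members that were lower, 1 of 15 promoters of members that were not called and 0 of 3 promoters of members that were higher. These matches are descriptions of the reference sequence; whether a factor bound them in these cells was not measured.

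Library totals ran from 14658082 to 20179847 expected counts. Libraries of a group differed by more than counting noise in every pair (chi-square per degree of freedom 2.04 to 3.56), so none was a copy of another. The libraries fell into 2 classes by the gap between a gene's length and its effective length, a quantity set by the fragment lengths used in quantification: 5 libraries had a gap of 101.3 to 106 bases (0 h 3 and 4, DMSO recovery 1, UNC0642 recovery 1 and 4) and 7 a gap of 120 to 126.8 bases. The epithelial markers KRT8, KRT18, KRT19, EPCAM, CDH1, CDX2 and VIL1 summed to 4936 to 5051 CPM at 0 h, 5558 to 5710 CPM after DMSO recovery and 5573 to 5789 CPM after UNC0642 recovery. Of the 6 tested, 5 were higher and 1 lower in each comparison with 0 h and none was called between the recoveries; the part of this shift in the members' results was not tested. A list of 10 blood, fibroblast and endothelial markers summed to 21.3 to 43.5, 27.5 to 35.7 and 28.2 to 35.98 CPM, with 2 to 6, 2 to 3 and 1 to 3 of its genes at 0 in a library. Of the 7 tested, 2 were higher and 5 lower after DMSO recovery, 1 and 2 after UNC0642 recovery, and none was called between the recoveries; the endothelial cadherin CDH5 was at 0 in every 0 h and DMSO recovery library. The collagen gene COL1A2 exceeded 1 CPM in 6 libraries spread over the 3 groups, and its part in the results was not tested beyond leaving those libraries out.

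After DMSO recovery most of the listed chaperones and disulfide enzymes were lower than at 0 h, while a few translocon and degradation members were higher. Of the 36 members, 17 were lower and 3 higher, and 16 were not called, by edgeR's quasi-likelihood test with Benjamini-Hochberg adjustment over all 12741 genes (called at adjusted p under 0.05). Over all genes 44.1% were called, 21.7% lower and 22.4% higher, so the members' share of higher calls was below that background and their share of lower calls above it. The median log2 fold change of the 36 was −0.10 against 0.01 over all genes, and 30 of the 36 values lay below 0. In 16 members every recovery library lay below every 0 h library and in 3 every one lay above (19.0% and 19.3% of all genes, 38.3% in both directions). The shifts were small: the range ran from −0.45 for HSP90B1 to 0.36 for SSR1. After UNC0642 recovery, measured against the same 0 h libraries, 18 members were lower and 4 higher, where 23.6% and 23.4% of all genes, 47.0% in both directions, were called. The median over the members was −0.08 on the log2 scale, and 0.01 over all genes. Groups did not overlap for 16 members that were lower and 4 that were higher (20.1% of all genes in each direction, 40.2% in both). Because both comparisons use the same 0 h libraries, they are not independent, and their values are given side by side. In bulk RNA, fewer cells that express a gene and less of its RNA per cell cannot be told apart.

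**Figure D1:**
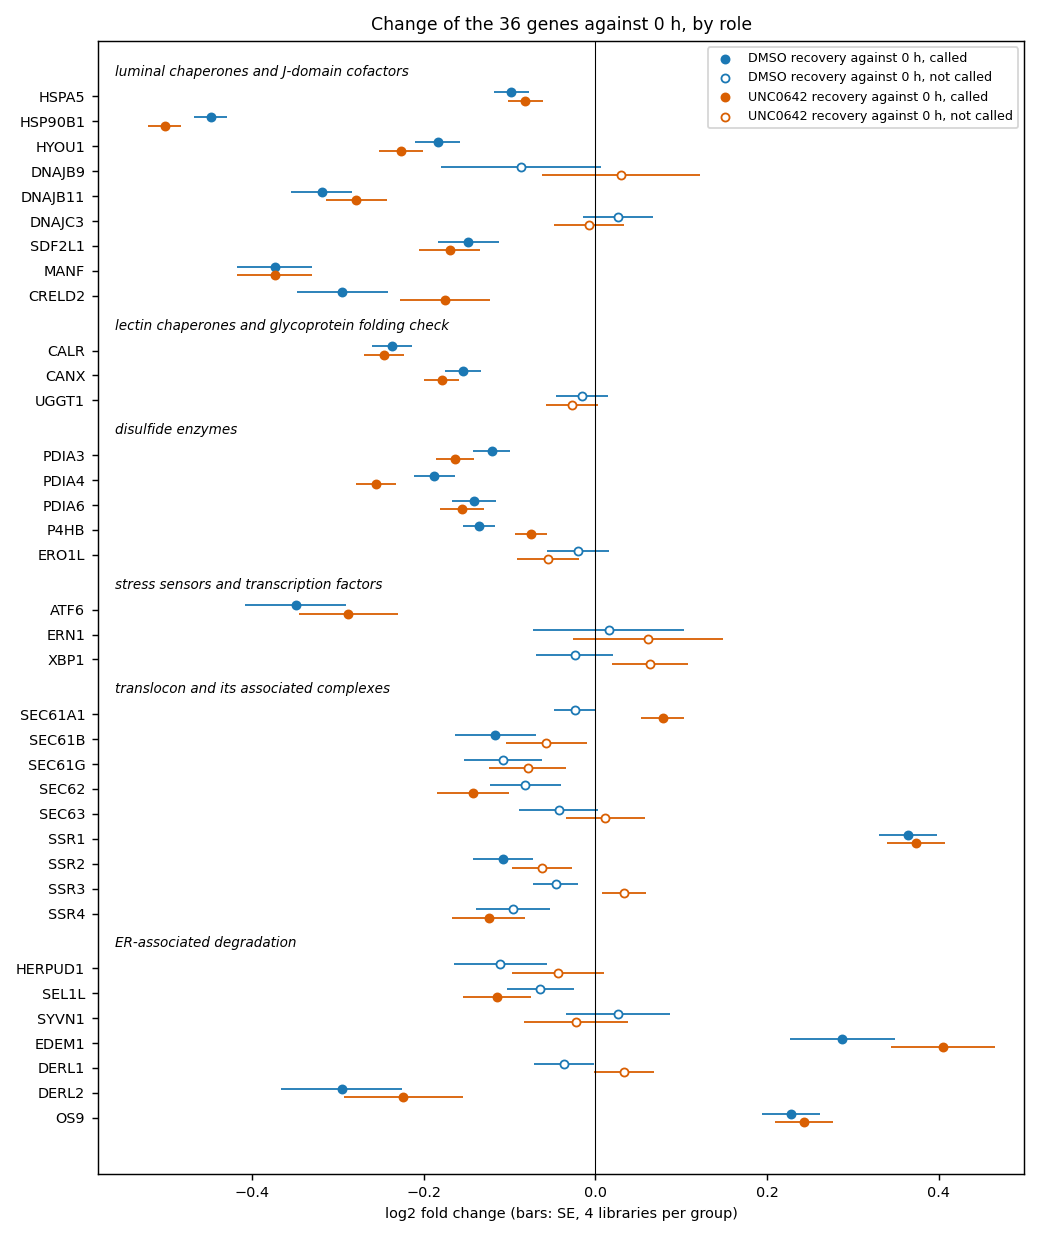
Log2 fold change of the 36 genes against 0 h after DMSO recovery (blue) and UNC0642 recovery (orange), grouped by role. Points are edgeR estimates, bars are SE from the fit of all 12 libraries (4 a group), and filled points were called at adjusted p under 0.05. Called points among the luminal chaperones, lectin chaperones and disulfide enzymes all lie left of 0, and SSR1, EDEM1 and OS9 lie right of it in both comparisons.

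The split depended on how libraries were scaled. With library totals alone in place of TMM, 3 members were higher and 14 lower after DMSO recovery, and 7 were higher and 11 lower after UNC0642 recovery, while higher genes rose from 50.8% to 67.5% of all genes called after DMSO recovery and from 49.8% to 67.5% after UNC0642 recovery. Within the libraries of long length gap, 3 members were higher and 19 lower after DMSO recovery (2243 and 2326 of all genes, in place of 2851 and 2766 with all libraries). After UNC0642 recovery these libraries gave 3 and 15 members (2120 and 2272 of all genes, in place of 2983 and 3007). The short-gap libraries hold 1 DMSO recovery library, which is assumed to vary like the others, and gave 3 and 12 members (1348 and 1354 of all genes) after DMSO recovery and 4 and 14 (1972 and 2065) after UNC0642 recovery. Leaving out the 6 libraries with COL1A2 above 1 CPM, an alternative chosen after seeing the data, leaves 0 h library 4 as the only 0 h library, so its spread is likewise borrowed from the other groups. It gave 3 members higher and 16 lower after DMSO recovery (1424 and 1563 of all genes) and 3 and 11 after UNC0642 recovery (1324 and 1512). Calls were fewer over all genes in each of these subsets, so a lost call there does not show a smaller difference.

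Among the 9 luminal chaperones and J-domain cofactors, 7 were lower and none higher in both comparisons with 0 h. HSP90B1, the ER member of the HSP90 family, showed the largest change of any member. HSP90B1 read 1223, 1225, 1206 and 1207 CPM in the 0 h libraries 1 to 4, 882, 896, 887 and 898 CPM in the DMSO recovery libraries and 874, 856, 860.3 and 841 CPM in the UNC0642 recovery libraries. Every recovery library lay below every 0 h library, and the 3 groups were each tight. The log2 fold change was −0.45 ± 0.02 (SE), adjusted p = 7.32e-19, after DMSO recovery, a level 1.36-fold lower, and −0.50 ± 0.02 (SE), adjusted p = 2.38e-20, after UNC0642 recovery. MANF, a small ER protein that is secreted and is known as an unfolded protein response target, came next after DMSO recovery. MANF read 82.7, 83.4, 82.9 and 87.7 CPM in the 0 h libraries 1 to 4, 71.4, 63.7, 63.4 and 61.1 CPM in the DMSO recovery libraries and 65.2, 62.6, 64.5 and 67.4 CPM in the UNC0642 recovery libraries. The 0 h libraries were all above the others, with library 4 of 0 h the highest. MANF differed by −0.37 ± 0.04 (SE), adjusted p = 1.87e-08, and by −0.37 ± 0.04 (SE), adjusted p = 1.49e-08.

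DNAJB11 (ERdj3) is a J-domain cofactor that hands unfolded proteins to HSPA5. DNAJB11 read 132, 127.2, 136 and 137 CPM in the 0 h libraries 1 to 4, 112.9, 102, 102 and 109 CPM in the DMSO recovery libraries and 109, 109.8, 108 and 111 CPM in the UNC0642 recovery libraries. No recovery library reached the lowest 0 h library, and the log2 fold changes were −0.32 ± 0.04 (SE), and −0.28 ± 0.04 (SE), with adjusted p of 7.04e-09 and 7.90e-08. CRELD2, an ER protein with EGF-like repeats that ER stress is known to induce, was also lower. CRELD2 read 44.7, 45.5, 50.5 and 46.0 CPM in the 0 h libraries 1 to 4, 36.7, 35.4, 40.1 and 39.6 CPM in the DMSO recovery libraries and 41.0, 38.7, 43.1 and 42.3 CPM in the UNC0642 recovery libraries. All recovery libraries were below all 0 h libraries, although UNC0642 recovery 3 came close to the lowest of them. The change was −0.30 ± 0.05 (SE), adjusted p = 3.12e-05, after DMSO recovery and −0.18 ± 0.05 (SE), adjusted p = 0.00652, after UNC0642 recovery; the second call was lost under 5 of 27 alternative settings, with adjusted p over all of them of 0.00281 to 0.139.

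HSPA5, the central ER chaperone and the usual marker of the unfolded protein response, moved little. HSPA5 read 1072, 1113, 1088 and 1064 CPM in the 0 h libraries 1 to 4, 1016, 1019, 1022 and 995 CPM in the DMSO recovery libraries and 1022, 1012, 1015 and 1051 CPM in the UNC0642 recovery libraries. The recovery libraries lay below the 0 h libraries in both groups, with UNC0642 recovery 4 nearest to them. Its log2 fold change was −0.10 ± 0.02 (SE), adjusted p = 1.82e-04, after DMSO recovery and −0.08 ± 0.02 (SE), adjusted p = 0.00127, after UNC0642 recovery. Both calls were lost with library totals alone, with log2 FPKM, within the short-gap libraries and without the COL1A2 libraries; the last leaves 1 library at 0 h and the short-gap set has 1 DMSO recovery library (adjusted p over all alternatives 1.91e-06 to 0.120 and 3.14e-05 to 0.408). HYOU1, an HSP70 family chaperone that acts as a nucleotide exchange factor for HSPA5, fell by 0.18 and 0.23 on the log2 scale. SDF2L1, a partner of DNAJB11, fell by 0.15 and 0.17 on that scale; its calls were lost under 3 and 1 of the 27 alternatives. The J-domain proteins DNAJB9 (ERdj4), at −0.09 (95% interval −0.28 to 0.10) and 0.03 (−0.16 to 0.22), and DNAJC3 (p58IPK), at 0.03 (−0.06 to 0.11) and −0.0073 (−0.09 to 0.08), did not pass the test.

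**Figure D2:**
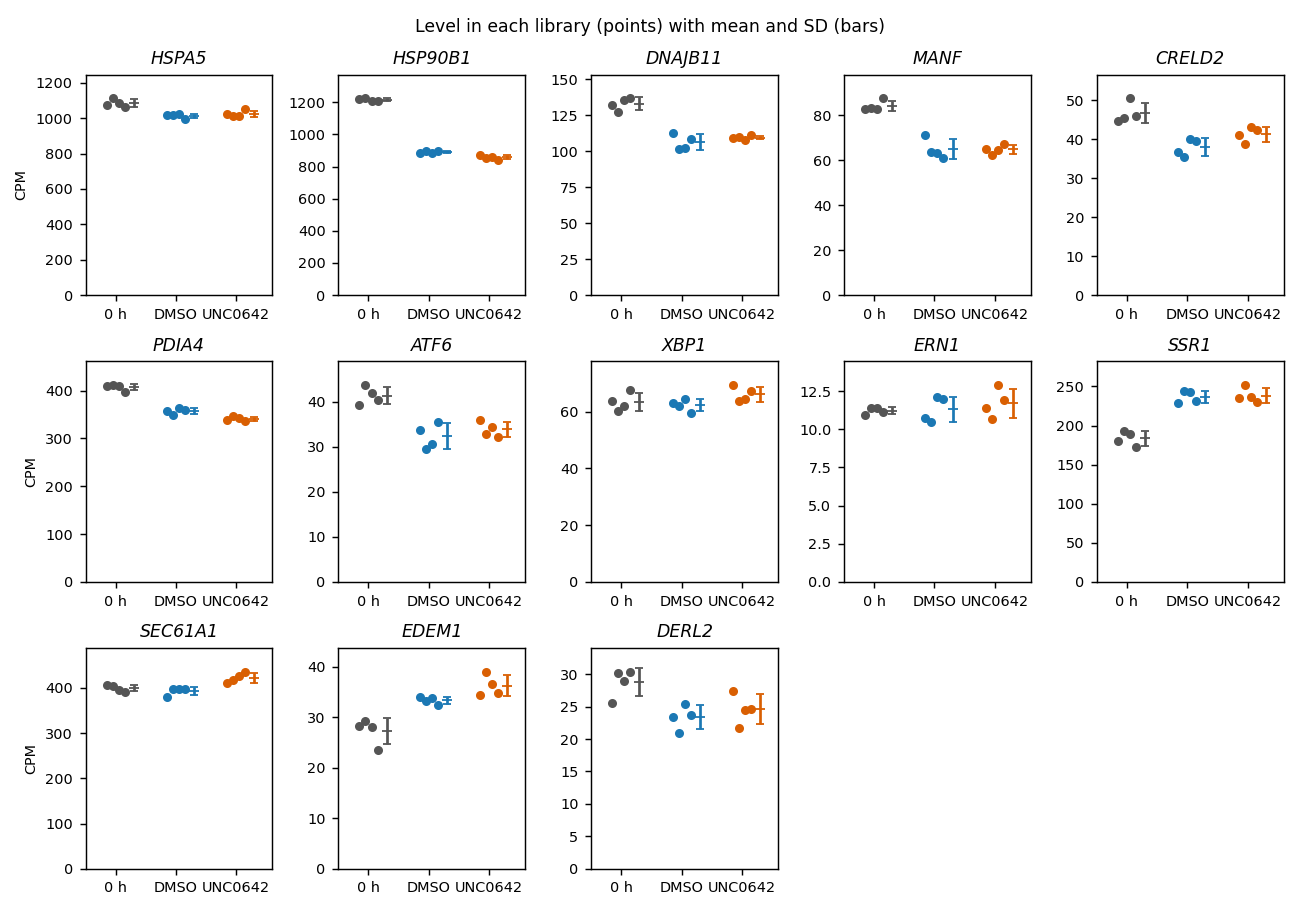
Level of 13 of the genes in each library, in TMM-scaled CPM on axes that start at 0, for 0 h, DMSO recovery and UNC0642 recovery; each point is a library (replicates 1 to 4 from left to right) and the bars are mean and SD. HSP90B1 sits at 1206 to 1225 CPM at 0 h and at 841 to 898 CPM after the recoveries, whereas the XBP1 and ERN1 points overlap.

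Of the 3 lectin chaperones and glycoprotein folding genes, 2 were lower and none higher in both comparisons. CALR and CANX, which hold newly made glycoproteins by their glucose-trimmed sugar chains, read −0.24 and −0.15 on the log2 fold change scale after DMSO recovery and −0.25 and −0.18 after UNC0642 recovery, all 4 called. CALR averaged 1296 ± 31.1 CPM at 0 h, 1099 ± 26.0 CPM after DMSO recovery and 1092 ± 38.5 CPM after UNC0642 recovery (SD, n = 4), and its groups did not overlap. UGGT1, which re-glucosylates misfolded glycoproteins for another round of folding, was not called at −0.02 (95% interval −0.08 to 0.05) and −0.03 (−0.09 to 0.03). Of the 5 disulfide enzymes, 4 were lower and none higher in both comparisons. PDIA4 read 409.8, 412, 409 and 398 CPM in the 0 h libraries 1 to 4, 357, 348, 364 and 360.4 CPM in the DMSO recovery libraries and 339, 346, 342 and 336 CPM in the UNC0642 recovery libraries. Every PDIA4 value after recovery was below every value at 0 h, and the UNC0642 recovery libraries were also all below the DMSO recovery libraries. For PDIA4, a PDI family enzyme, the log2 fold change was −0.19 ± 0.02 (SE), adjusted p = 8.21e-08, after DMSO recovery and −0.26 ± 0.02 (SE), adjusted p = 1.09e-10, after UNC0642 recovery.

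The other PDI family enzymes PDIA3, PDIA6 and P4HB were lower by less. After DMSO recovery their log2 fold changes were −0.12, −0.14 and −0.14, and after UNC0642 recovery −0.16, −0.16 and −0.08. The P4HB call after UNC0642 recovery was lost under 4 of 27 alternatives, with library totals alone among them (adjusted p over all of them 7.15e-05 to 0.503), and the PDIA6 call after DMSO recovery under 1, within the short-gap libraries with their 1 DMSO recovery library. ERO1L (ERO1A), the oxidase that recharges the PDI enzymes, was not called, at −0.02 (95% interval −0.09 to 0.05) and −0.06 (−0.13 to 0.02).

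Of the 3 stress sensors and transcription factors, only ATF6 was called. ATF6 read 39.3, 43.8, 42.1 and 40.5 CPM in the 0 h libraries 1 to 4, 33.9, 29.5, 30.6 and 35.6 CPM in the DMSO recovery libraries and 36.03, 32.8, 34.5 and 32.3 CPM in the UNC0642 recovery libraries. The 0 h libraries were all higher, and the DMSO recovery libraries were the more scattered. ATF6, the membrane-held factor that is cleaved in the Golgi under ER stress, differed by −0.35 ± 0.06 (SE), adjusted p = 9.90e-06, and by −0.29 ± 0.06 (SE), adjusted p = 1.19e-04; the second call was lost without the COL1A2 libraries, which leaves 1 library at 0 h (adjusted p = 0.101, over all alternatives 9.50e-06 to 0.101). XBP1 read 63.9, 60.0, 62.0 and 67.5 CPM in the 0 h libraries 1 to 4, 63.1, 62.1, 64.5 and 59.4 CPM in the DMSO recovery libraries and 69.3, 63.6, 64.4 and 67.1 CPM in the UNC0642 recovery libraries. XBP1, whose RNA is spliced by ERN1, overlapped between all 3 groups and was not called, at −0.02 (95% interval −0.11 to 0.07) and 0.06 (−0.03 to 0.15). The second value gained a call under 2 of 27 alternatives (values over all −0.03 to 0.12, adjusted p over all 0.0146 to 0.842). Gene-level values do not show the splicing of XBP1. ERN1 read 10.9, 11.4, 11.4 and 11.1 CPM in the 0 h libraries 1 to 4, 10.7, 10.5, 12.1 and 11.96 CPM in the DMSO recovery libraries and 11.4, 10.6, 12.9 and 11.9 CPM in the UNC0642 recovery libraries. ERN1, the kinase and nuclease that does the splicing, also overlapped throughout, at 0.02 (−0.16 to 0.19) and 0.06 (−0.12 to 0.24).

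The 9 translocon members divided. SSR1, the alpha subunit of the TRAP complex, was higher after both recoveries, and none of the other 3 TRAP subunits was, except SSR3 after UNC0642 recovery with library totals alone or log2 FPKM. SSR1 read 179.9, 194, 189 and 173 CPM in the 0 h libraries 1 to 4, 229, 244, 243 and 232 CPM in the DMSO recovery libraries and 235, 252, 237 and 229.6 CPM in the UNC0642 recovery libraries. All recovery libraries were above all 0 h libraries. SSR1 rose by 0.36 ± 0.03 (SE), adjusted p = 1.37e-10, after DMSO recovery and 0.37 ± 0.03 (SE), adjusted p = 5.87e-11, after UNC0642 recovery. In the same fits SSR2, SSR3 and SSR4 read −0.11, −0.05 and −0.10 after DMSO recovery, of which SSR2 was called lower, and −0.06, 0.03 and −0.12 after UNC0642 recovery, of which SSR4 was called lower. Library totals alone, which move the median of all genes up to 0.06 and 0.07, gave SSR1 0.42 and 0.43, and gave SSR2 and SSR3 −0.05 and 0.007 after DMSO recovery and −0.0027 and 0.09 after UNC0642 recovery. The SSR2 call was lost under 6 of 27 alternatives, leaving out 0 h library 2 among them (adjusted p over all 0.00359 to 0.473), and the SSR4 call was lost under 6, leaving out 0 h library 1 or UNC0642 recovery library 3 among them (adjusted p over all 0.00387 to 0.873), and changed sign with gene length offsets.

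The Sec61 channel subunits gave small and partly unstable differences from 0 h. SEC61B, the beta subunit, was called lower after DMSO recovery at −0.12 ± 0.05 (SE), adjusted p = 0.0445, a call lost under 9 of 27 alternatives, of which 4 left out 0 h library 2, 0 h library 4, DMSO recovery library 3 or DMSO recovery library 4, and with gene length offsets the value was 0.011 (adjusted p over all 0.00838 to 0.871). SEC61G, the gamma subunit, was not called at −0.11 (adjusted p = 0.0529) and −0.08; after DMSO recovery it was called lower under 10 of 27 alternatives, leaving out 0 h library 2, DMSO recovery library 1, or UNC0642 recovery library 2 or 4 among them (adjusted p over all 0.00271 to 0.800). SEC62, which assists post-translational entry, was called lower after UNC0642 recovery at −0.14 ± 0.04 (SE), adjusted p = 0.00504, lost under 4 of 27 alternatives (adjusted p over all 1.01e-04 to 0.327), and read −0.08 without a call after DMSO recovery. SEC63, the J-domain protein that brings HSPA5 to the channel, read −0.04 and 0.011 without a call. SEC61A1, the channel-forming alpha subunit, read −0.02 without a call after DMSO recovery and 0.08 ± 0.02 (SE), adjusted p = 0.00970, after UNC0642 recovery.

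Members of ER-associated degradation moved in both directions. EDEM1 read 28.2, 29.2, 28.1 and 23.5 CPM in the 0 h libraries 1 to 4, 34.0, 33.1, 33.9 and 32.5 CPM in the DMSO recovery libraries and 34.5, 39.0, 36.6 and 34.8 CPM in the UNC0642 recovery libraries. All recovery libraries lay above the 0 h libraries, of which library 4 was the lowest. EDEM1, which marks misfolded glycoproteins for disposal by mannose trimming, rose by 0.29 ± 0.06 (SE), adjusted p = 2.53e-04, and 0.41 ± 0.06 (SE), adjusted p = 1.39e-06. OS9, a lectin that reads the trimmed sugar chains, was also higher in both comparisons, at 0.23 ± 0.03 (SE), and 0.24 ± 0.03 (SE), with means of 116 ± 3.73 CPM at 0 h, 136 ± 3.92 CPM and 137 ± 4.14 CPM after the recoveries (SD, n = 4) and no overlap. DERL2 read 25.6, 30.2, 28.995 and 30.4 CPM in the 0 h libraries 1 to 4, 23.4, 21.0, 25.5 and 23.7 CPM in the DMSO recovery libraries and 27.5, 21.8, 24.5 and 24.6 CPM in the UNC0642 recovery libraries. DERL2, a Derlin of the exit channel, was below every 0 h library in all DMSO recovery libraries, while UNC0642 recovery 1 overlapped them. Its log2 fold change was −0.30 ± 0.07 (SE), adjusted p = 8.71e-04, after DMSO recovery and −0.22 ± 0.07 (SE), adjusted p = 0.00847, after UNC0642 recovery, the second lost under 5 of 27 alternatives (adjusted p over all 0.00190 to 0.135).

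In the ligase complex only SEL1L was called, and in 1 comparison. SEL1L, its scaffold, read −0.06 without a call after DMSO recovery and −0.11 ± 0.04 (SE), adjusted p = 0.0170, after UNC0642 recovery, a call lost under 5 of 27 alternatives, leaving out UNC0642 recovery library 4 among them (adjusted p over all 6.56e-04 to 0.332). SYVN1 (HRD1), the ubiquitin ligase, read 0.03 (95% interval −0.10 to 0.15) and −0.02 (−0.15 to 0.10). HERPUD1, an adaptor of the complex and a stress-induced gene, read −0.11 (−0.22 to −0.00086) and −0.04 (−0.15 to 0.07). Neither was called in either comparison. HERPUD1 was called lower after DMSO recovery under 3 of 27 alternatives (adjusted p over all 0.0232 to 0.793). DERL1 read −0.04 and 0.03, also without a call. Its second value was called higher under 2 of 27 alternatives (adjusted p over all 0.0292 to 0.882).

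Levels between genes are compared per length, in FPKM, the deposited level that divides a gene's fragments by its length and by the library's size. At 0 h CALR was the most abundant member at 701 ± 13.1 FPKM (SD, n = 4), followed by P4HB at 517 ± 6.76 and HSP90B1 at 443 ± 5.52 FPKM. SEC61G at 285 ± 9.47 and HSPA5 at 274 ± 5.95 FPKM came next and lie closer to each other. The sensor ERN1 was the least abundant at 2.81 ± 0.0545 FPKM, with EDEM1 at 4.39 ± 0.416 and DNAJB9 at 4.44 ± 0.192 FPKM just above. Of the 18 more abundant members (69.1 to 646 FPKM over all libraries), 14 were lower, none higher and 4 not called after DMSO recovery, with a median log2 fold change of −0.14. Of the 18 less abundant (2.93 to 48.8 FPKM), 3 were lower, 3 higher and 12 not called, with a median of −0.03. After UNC0642 recovery the counts were 13 lower, 1 higher and 4 not called in the upper set and 5, 3 and 10 in the lower set. Intervals were wider for low members such as ERN1 than for abundant ones such as HSPA5. A smaller change could therefore be called in the upper set, so the counts do not compare the sets on equal terms. Across the 36 genes, log2 fold change after DMSO recovery had a Spearman correlation of −0.51 with mean FPKM and 0.55 with gene length, against −0.39 and 0.21 across all 12741 genes tested. After UNC0642 recovery the members' values were −0.44 and 0.37, and those of all genes −0.35 and 0.16. These are descriptions across genes, which share the same libraries and are not replicates. Abundant and short genes thus sat lower in the members and in all genes, and the part of length or level in the members' shift was not tested. Gene length offsets remove from each library a smooth trend of level on gene length. With them, 3 members were higher and 18 lower after DMSO recovery (2770 and 2825 of all genes). After UNC0642 recovery the counts were 5 and 15 (2997 and 2961 of all genes).

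**Figure D3:**
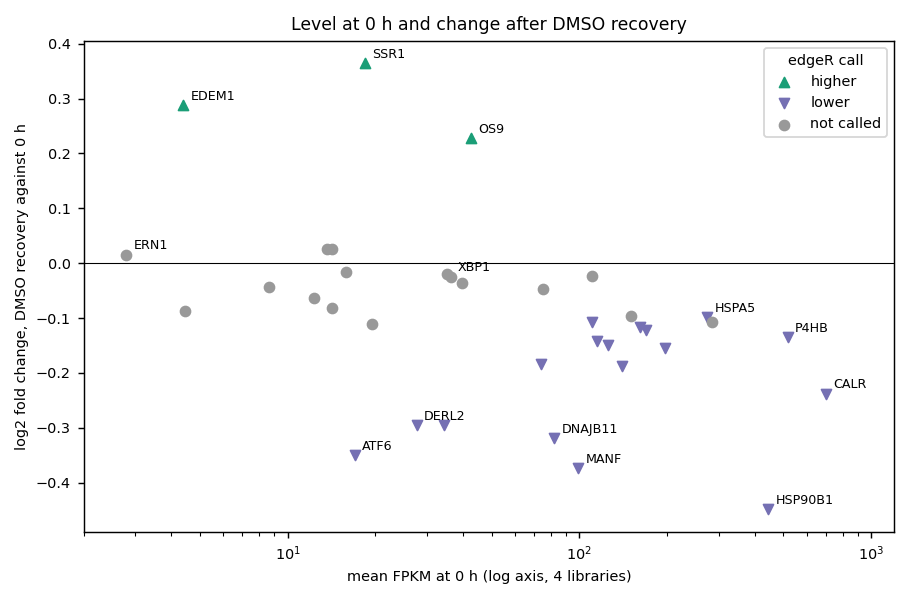
Mean FPKM of each of the 36 genes at 0 h (horizontal, log axis, 4 libraries) against its log2 fold change after DMSO recovery (vertical); triangles mark genes called higher or lower, and grey points were not called. Genes called higher (SSR1, EDEM1 and OS9) lie among the less abundant, and HSP90B1 is the lowest point among the most abundant.

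Summed over all 36 genes, the members took 10105 ± 64.4 CPM at 0 h, 9079 ± 30.5 CPM after DMSO recovery and 9111 ± 47.2 CPM after UNC0642 recovery (SD, n = 4). The luminal chaperones accounted for 3087 ± 32.0, 2588 ± 7.62 and 2562 ± 12.7 CPM, and neither recovery group overlapped 0 h. The lectin chaperones went from 2448 ± 38.2 CPM to 2149.7 ± 19.3 and 2126 ± 21.9 CPM. For the disulfide enzymes the sums were 2606 ± 14.8, 2372 ± 23.2 and 2387 ± 28.0 CPM. Translocon genes, in contrast, summed to 1386 ± 13.7 CPM at 0 h and 1390.3 ± 12.3 CPM after DMSO recovery, which overlap, and to 1441 ± 11.8 CPM after UNC0642 recovery, where the lowest library (1428 CPM) lay above the highest of the other groups (1400.5 CPM). The degradation genes summed to 462 ± 7.81, 473 ± 3.18 and 483 ± 5.03 CPM and the sensors to 116 ± 2.22, 106 ± 2.63 and 112 ± 4.00 CPM. These sums carry no test, and each is led by its most abundant members.

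**Figure D4:**
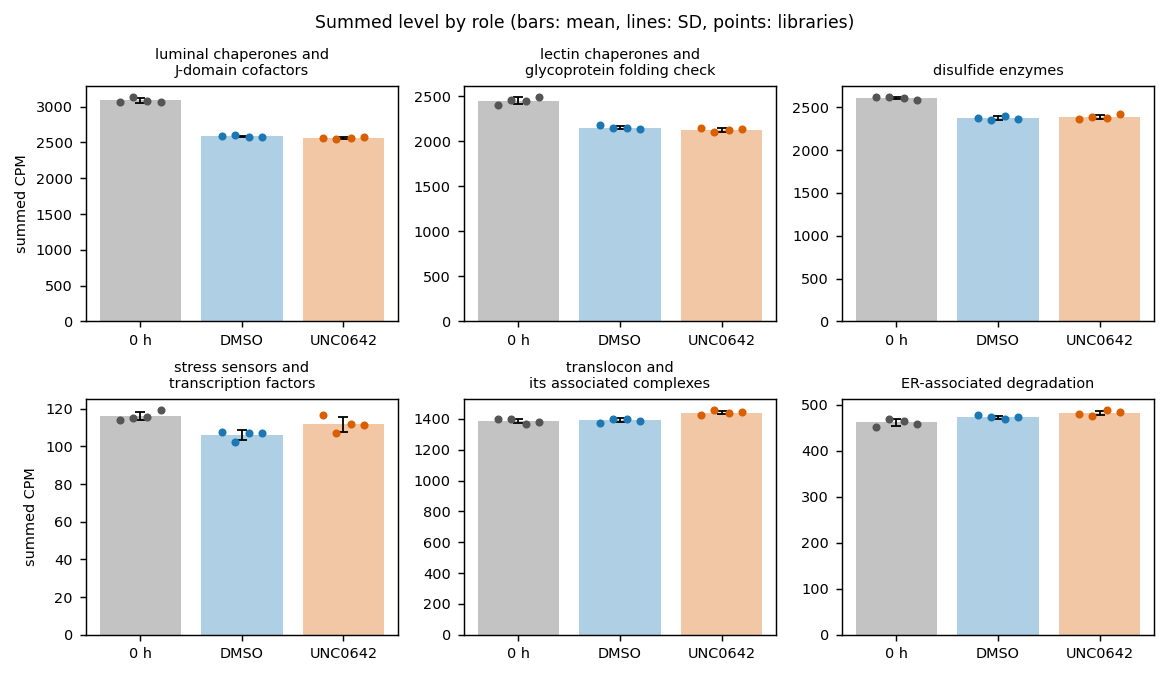
Summed TMM-scaled CPM of the members of each role in each library, by group, with mean and SD (n = 4). The luminal chaperone, lectin chaperone and disulfide enzyme sums are lower in both recovery groups than at 0 h, and the translocon sum is highest after UNC0642 recovery.

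The comparison of UNC0642 recovery with DMSO recovery asks whether the inhibitor, present only during methionine restriction, left a difference a day after its removal. For these 36 genes 1 was higher, none lower and 35 were not called (4.58% of all genes were called, 2.06% higher and 2.53% lower). The edgeR test gave 5 members higher and 2 lower at an unadjusted p under 0.05 (1035 and 1153 of all 12741 genes), and DESeq2 called 2 higher and none lower (256 and 296 of all genes). The members' log2 fold changes ran from −0.07 to 0.12 with a median of 0.02, against a median of −0.0012 over all genes. The groups did not overlap for 4 members that were higher and 3 that were lower (5.05% and 5.42% of all genes, 10.5% in both directions). The 1 call was SEC61A1, named here after its value was seen, because it lies outside the rule for named genes. SEC61A1 read 406, 405, 396 and 392 CPM in the 0 h libraries 1 to 4, 381, 397, 397 and 399 CPM in the DMSO recovery libraries and 411, 417, 426 and 436 CPM in the UNC0642 recovery libraries. Every UNC0642 recovery library was above every DMSO recovery library, the lowest of which was library 1. The log2 fold change was 0.10 ± 0.02 (SE), adjusted p = 0.0101, with a 95% interval of 0.05 to 0.15. Leaving out UNC0642 recovery library 4 ended the call (0.09, adjusted p = 0.0529), as did the long-gap libraries alone, 2 against 3 (adjusted p = 0.167) and leaving out the COL1A2 libraries, also 2 against 3 (adjusted p = 0.443; over all alternatives 0.00221 to 0.443). Against 0 h, the SEC61A1 call was likewise lost in the long-gap libraries alone and without the COL1A2 libraries, the latter with 1 library at 0 h (adjusted p = 0.199 and 0.217, over all alternatives 2.34e-05 to 0.217).

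For the other members the intervals show how large a difference between the 2 recoveries these libraries leave possible. HSPA5 differed by 0.02 (95% interval −0.02 to 0.06) on the log2 scale, and HSP90B1 by −0.05 (−0.09 to −0.014, adjusted p = 0.115). XBP1 differed by 0.09 (−0.00057 to 0.18), and ATF6 by 0.06 (−0.06 to 0.18). CRELD2, at 0.12, and EDEM1, at 0.12, had wider intervals (0.012 to 0.23 and 0.00027 to 0.23). P4HB at 0.06 (adjusted p = 0.0602, over all alternatives 0.0217 to 0.584), SSR3 at 0.08 (adjusted p = 0.0702, 0.0416 to 0.466) and PDIA4 at −0.07 (adjusted p = 0.0991) came nearest to a call. These p-values do not show that the recoveries were alike.

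**Figure D5:**
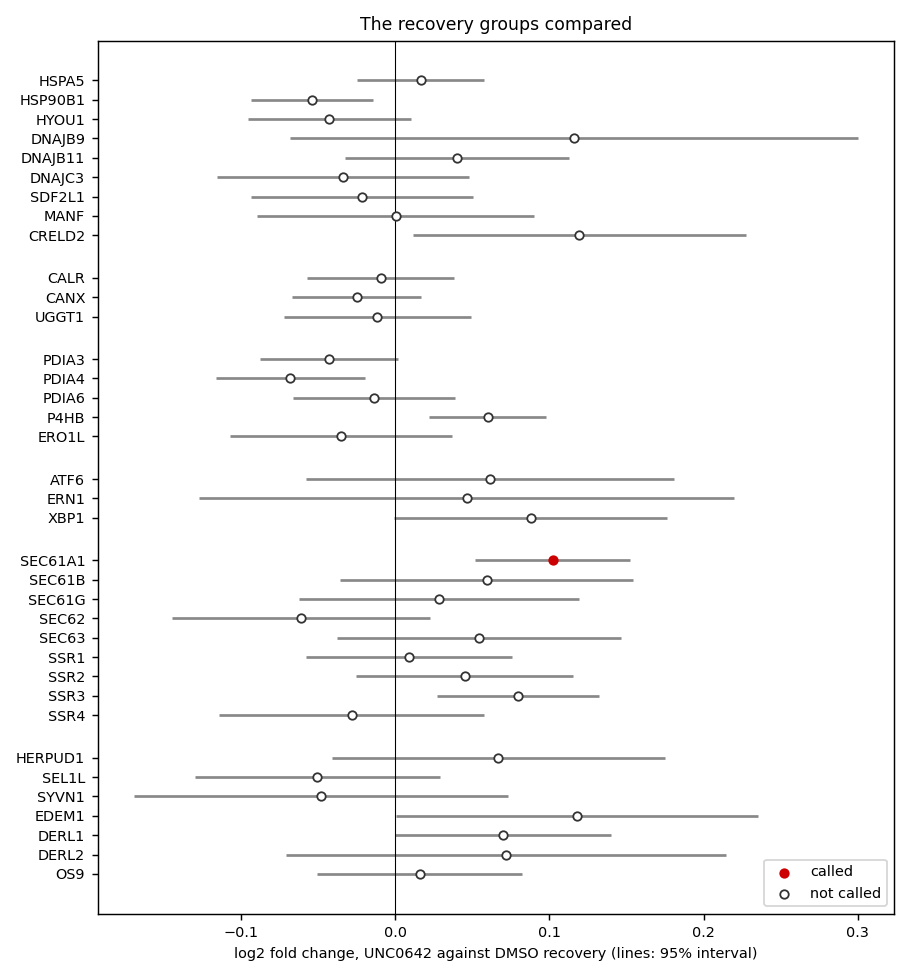
Log2 fold change of UNC0642 recovery against DMSO recovery for the 36 genes, with 95% intervals from edgeR (4 libraries a group); the filled point was called at adjusted p under 0.05. SEC61A1 at 0.10 is the only filled point, and all 36 estimates lie between −0.07 and 0.12.

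Genes that work beside the members were taken from 6 further lists, with values in parentheses as log2 fold change ± SE. The background for all 6 lists is the share called over all genes tested. After DMSO recovery it was 22.4% higher and 21.7% lower, and after UNC0642 recovery 23.4% and 23.6%. The median over all genes was 0.01 in both comparisons. Of 38 tested other ER folding enzymes and chaperones, 5 were higher and 12 lower after DMSO recovery and 6 and 10 after UNC0642 recovery (medians −0.07 and −0.02). DNAJC10 (ERdj5), a disulfide reductase with a J domain, and the prolyl isomerase FKBP10 were higher after DMSO recovery (0.36 ± 0.04; 0.33 ± 0.04), and the PDI family enzyme TXNDC5 was lower (−0.21 ± 0.02). Of 32 oligosaccharyltransferase and N-glycan genes, 6 were higher and 14 lower, then 7 and 14 (medians −0.09 and −0.09); the transferase subunits STT3A (−0.23 ± 0.03) and DDOST (−0.20 ± 0.03) were lower after DMSO recovery and UGGT2, the paralog of UGGT1, was higher (0.38 ± 0.06).

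Of 30 other translocation, signal peptidase and membrane insertion genes, 3 were higher and 13 lower after DMSO recovery and 5 and 12 after UNC0642 recovery (medians −0.09 and −0.06). The chaperone of tail-anchored proteins SGTA (−0.27 ± 0.03) and the signal recognition particle subunits SRP14 (−0.26 ± 0.03) and SRP68 (−0.18 ± 0.03) were lower after DMSO recovery. Of 34 other degradation genes, 5 were higher and 11 lower, then 7 and 11 (medians −0.04 and 0.02), with FAF2, a recruiter of the VCP segregase, lower (−0.24 ± 0.03) and FAM8A1, a SYVN1 complex member, higher (0.34 ± 0.06) after DMSO recovery. Of 28 COPII, cargo receptor and KDEL receptor genes, which carry proteins out of the ER and return escaped chaperones, 4 were higher and 8 lower, then 5 and 9 (medians −0.06 and −0.02); the coat subunit SEC13 (−0.26 ± 0.03) and the cargo receptor TMED2 (−0.23 ± 0.03) were lower after DMSO recovery, and the cargo receptor subunit MCFD2 was higher after UNC0642 recovery (0.23 ± 0.03).

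Of 23 tested PERK branch and ER stress regulators, 2 were higher and 9 lower after DMSO recovery and 3 and 5 after UNC0642 recovery (medians −0.07 and −0.01). ATF4, the transcription factor translated when PERK or the amino acid sensor GCN2 phosphorylates eIF2 alpha, was lower after both (−0.28 ± 0.02; −0.25 ± 0.02), and PPP1R15A (GADD34), which reverses that phosphorylation, was lower after DMSO recovery (−0.36 ± 0.05). CREB3L2, a membrane-held transcription factor related to ATF6, was higher after UNC0642 recovery (0.37 ± 0.05). Between the recoveries, the 6 lists held 3 calls, where 4.58% of all genes were called. They were 1 of 34 other degradation genes, 1 of 28 COPII and receptor genes and 1 of 23 PERK branch and stress regulators. CHAC1, a glutathione-degrading target of ATF4, was higher after UNC0642 recovery (0.64 ± 0.19, edgeR adjusted p = 0.0384). The mannosidase MAN1A1 was lower (−0.23 ± 0.06), and the groups overlapped for both genes. MCFD2 was higher (0.12 ± 0.03), without overlap. DDIT3 (CHOP), another ATF4 target, read 0.35 ± 0.11 without a call (adjusted p = 0.0647).

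Some members may share reads with other genes. The GENCODE annotation lists pseudogenes named after 6 members, HSP90B1, PDIA3, XBP1, SEC63, SSR1 and SSR4, and reads from such near-copies could be divided between them, so the values of these genes are uncertain to that extent. A gene on the other strand overlaps 25 of the 36 members, and the sources used here do not say if the counting used strand.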

How the data were processed

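Total RNA of HCT116 cells, extracted with Trizol per the labels' protocols, was sequenced in 12 libraries. Per the submitters' processing notes, RSEM 1.2.4, Bowtie and hg18 were used; settings and strandedness: not given in the sources used here. Per the file headers, the deposited tables hold an expected count and an FPKM value per gene. Expected counts were rounded and fitted in edgeR 4.0.16 (R 4.3.3) with TMM factors, its default low-count filter, quasi-likelihood F tests and all 12 libraries in 1 model; p-values were adjusted by Benjamini-Hochberg over 12741 genes. The biological coefficient of variation was 3.44%. The deposited FPKM values were used for levels between genes and, as log2(FPKM + 1) in limma 3.58.1, as an alternative; DESeq2 1.42.0 was another. The code was tested on simulated counts. Promoters came from RefSeq. The members and all lists were chosen with earlier results of these data known. Values in every library are given for HSPA5, XBP1, ATF6 and ERN1 and for members called in a comparison, without overlap of its groups, at a log2 fold change of at least 0.25 in size; from each other list up to 3 genes with the smallest p were eligible. Replicate numbers were not used to pair the libraries in the fit reported. Symbols were matched as the files give them, some through older names, and EMC8 was not matched.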

Additional observations from a re-analysis of the deposited data

Results flagged for a closer look

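Among 108 groups of 4 libraries (36 genes in 3 groups), 5 held a library whose gap to the nearest other library took up 0.832 to 0.932 of the group's range, above Dixon's critical value for 4 samples; chance flags about 1 in 20 groups. PDIA3 read 464 CPM in UNC0642 recovery 4 and 454 to 455 CPM in the others. PDIA6 read 246 CPM in DMSO recovery 1 and 235 to 237 CPM in the others. MANF read 87.7 CPM in 0 h 4 and 82.7 to 83.4 CPM in the others. SEC61A1 read 381 CPM in DMSO recovery 1 and 397 to 399 CPM in the others. UGGT1 read 166 CPM in 0 h 1 and 176 CPM in the others. The difference between the recoveries in their change from 0 h was called for SEC61A1 alone among the 36 genes, at 0.10 on the log2 scale (UNC0642 recovery minus DMSO recovery); the shared 0 h libraries cancel in it.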

How the results depend on the processing

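Of 108 results (36 genes in 3 comparisons) under 27 alternatives each, 2815 of 2916 values kept their call or their lack of one. Another 63 lost the call, 35 gained one and 3 reversed, a change of sign with a call in the fit reported or the alternative. In 75 results no alternative changed the call. Values without a call could still change sign, as for DNAJC3 after DMSO recovery (−0.030 to 0.080 over the alternatives). The reversals all came with gene length offsets: SEC61B after DMSO recovery (0.011, adjusted p = 0.871), and SEC61G (0.091, adjusted p = 0.0376) and SSR4 (0.0088, adjusted p = 0.873) after UNC0642 recovery. After UNC0642 recovery, library totals alone and log2 FPKM each gave 7 higher and 11 lower members in place of 4 and 18, and leaving out the COL1A2 libraries gave 11 lower, with 1 library at 0 h (lower calls over all genes went from 3007 to 1512). With log2 FPKM, higher genes made up 68.5% and 67.3% of all genes called after DMSO and UNC0642 recovery. Between the recoveries, 1 member was higher in the fit reported; the count was 3 with library totals alone, 2 with DESeq2, limma-voom or gene length offsets (which also gave 1 lower), and 0 with the long-gap libraries alone or without the COL1A2 libraries. Leaving out each library in turn gave 3 higher and 16 to 19 lower after DMSO recovery, 4 higher and 17 to 19 lower after UNC0642 recovery, and 0 to 1 higher and 0 lower between the recoveries. The causes were not tested. Same-numbered libraries did not deviate together (correlations −0.076 to 0.052), so no pairing by number was seen. These correlations run over all genes tested, low ones included, so they cannot exclude a shared culture or batch. With the replicate block the counts were 3 and 17, 4 and 18, and 2 and 0. Depth of 14658082 or more counts limits the low genes most, such as ERN1.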
